A study of Homo sapiens with 12 samples.

Results

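Amino acid transporters were followed as 10 named genes, picked by symbol for their known function and not for a measured value, out of the 20212 genes in the count table. PANC-1, an established human pancreatic cancer line that the labels describe as pancreatic duct cells, had been given DMSO, the solvent, as the control, or rapamycin at 50 nM for 60 min. There were 3 biological replicate cultures of each treatment. All cultures grew in DMEM with fetal bovine serum, and they differed by the labels in treatment alone. By the replicate numbers in the labels, every culture gave 1 library of ribosome footprints (RF) and 1 of total RNA, which made 12 libraries. Footprints are the mRNA pieces that ribosomes shield from nuclease. The translation efficiency (TE) of a gene is its share of RF relative to its share of total RNA, and the comparison asked which mRNAs gained or lost ribosomes per mRNA under rapamycin.

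Amino acids enter cells through solute carriers, and their supply inside the cell is one of the signals that turn on mTORC1, the kinase complex that rapamycin inhibits. SLC1A5 and the SLC38 carriers bring in glutamine and other neutral amino acids, and the exchanger formed by SLC7A5 and SLC3A2 trades intracellular amino acids for leucine and other large neutral ones. SLC38A9 sits in the lysosomal membrane, where it reports arginine to mTORC1. mTORC1 in turn raises the translation of mRNAs that begin with a terminal oligopyrimidine (TOP) tract, and it raises the output of ATF4, a transcription factor that activates several of these transporter genes.

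The RF libraries were small and varied more than the RNA libraries. They held 278835 to 1574723 counts, with the fewest in rapamycin culture 3 and DMSO culture 1, against 78081241 to 94293744 counts in the RNA libraries. The biological coefficient of variation was 54.9% over the RF libraries and 5.31% over the RNA libraries. The RNA libraries were not uniform in the genes with any count. There were 16840 and 16858 such genes in DMSO cultures 1 and 2, against 19751 to 19847 in DMSO culture 3 and the rapamycin cultures. The RF library of DMSO culture 2 stood apart in raw counts. Its Pearson's r across genes was 0.669 to 0.756 with the others, which had 0.895 to 0.969 among themselves. On log2 counts scaled to library size the 2 ranges overlapped, at 0.796 to 0.849 and 0.840 to 0.917. The epithelial markers KRT8, KRT18 and KRT19 were high in total RNA (KRT8 at 1666 to 1765 FPKM, the authors' fragment counts scaled for transcript length and library size), while SOX9 lay between 19.96 and 22.52 FPKM, KRT7 between 9.83 and 12.02 FPKM, and the duct marker CFTR reached at most 0.122 FPKM. Markers of other cell types were at or near 0, with PTPRC of leukocytes at most 0.215, INS of beta cells at most 0.074 and PRSS1 of acinar cells at most 0.103 FPKM, and COL1A1 of fibroblasts at 0.674 to 1.53 FPKM.

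The start of the mRNA is shown for the 5 transporters with the most footprints, because it is where a TOP tract would lie. The sequences are from the GENCODE annotation on GRCh37 and belong to the coding isoform with the highest FPKM. A TOP start was taken as a C as the first base with at least 4 more pyrimidines directly after it, and any such tract would be in capitals. In that isoform, none of the 10 members had such a tract, and each began with a purine. Their other isoforms were not read. Among 12793 genes with a coding leading isoform, 4.39% had such a start.
SLC38A2, chr12:46766537-46766556, minus strand: acagccgcgcgacgccgccg
SLC3A2, chr11:62648368-62648387, plus strand: agatgcagtagccgaaactg
SLC7A5, chr16:87903094-87903113, minus strand: acgcagctgcgggcggcggg
SLC38A1, chr12:46662807-46662826, minus strand: actgacacgcagctttggtt
SLC1A5, chr19:47291832-47291851, minus strand: agagccacgcggcacgcccg

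The bases around the main start codon are shown for the same genes because the members divided there, and the ATG is in capitals. A purine at position -3 and a G at position 4, counted from the A of the ATG as position 1, were both present in 7 of the 10 members and in 44.2% of the 12793 genes. SLC38A2, SLC3A2 and SLC38A1 had the purine and lacked the G.
SLC38A2, chr12:46765067-46765086, minus strand: agtgcttagcATGaagaagg
SLC3A2, chr11:62648486-62648505, plus strand: tgcaggcaccATGagccagg
SLC38A1, chr12:46633574-46633593, minus strand: ctttctaatcATGatgcatt
SLC7A5, chr16:87903019-87903038, minus strand: tgcgcagagcATGgcgggtg
SLC1A5, chr19:47291213-47291232, minus strand: gcttcccatcATGgtggccg

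Upstream ATGs, which can open short reading frames before the main one, were found in the leaders of 6 of the 10 members and of 42.6% of the 12793 genes. SLC38A1 had 7, SLC7A6 had 4, SLC7A11 had 2, and SLC38A2, SLC7A1 and SLC3A2 had 1 each. Those of 3 members are shown, with the ATG in capitals, because their frames were of different kinds. The frame in SLC38A2 was 4 codons long and ended in the leader, that in SLC7A1 was 110 codons long and also ended in the leader, and that shown for SLC7A6 was 36 codons long and ran over the main start.
SLC38A2, chr12:46766347-46766361, minus strand: ttttttATGatttgt
SLC7A1, chr13:30169808-30169822, minus strand: ctgctgATGaaacct
SLC7A6, chr16:68300597-68300611, plus strand: agtgtgATGttcgcg
The leaders were longer than the median of all genes, 136 bases, in 7 members, and the members' median was 262.5 bases. The 3′ UTRs had a median of 2935 bases against 976 bases over all genes. These features describe 1 isoform of each gene, and in DMSO that isoform held a mean of only 32.9% of the isoform FPKM in SLC3A2, 33.7% in SLC38A9 and 35.2% in SLC7A6 (3 cultures each).

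The transporters spanned a wide range of levels in control cells. By FPKM of total RNA in DMSO, which is per length, SLC38A2 was highest at 214 ± 3.75 (SD, n = 3), followed by SLC3A2 at 171 ± 4.88, SLC7A5 at 84.8 ± 3.65, SLC38A1 at 66.9 ± 1.26 and SLC1A5 at 45.8 ± 1.82. Then came SLC7A6 at 19.1 ± 1.17, SLC38A9 at 14.1 ± 0.739, SLC7A1 at 11.5 ± 0.105, SLC7A11 at 10.5 ± 0.526 and SLC1A4 at 2.62 ± 0.238 FPKM. No neighbours in this order overlapped in their ranges over the 3 DMSO cultures. By RF CPM, counts scaled to library size, per kilobase of coding sequence, SLC38A2 was again first at 1127 ± 318, ahead of SLC3A2 at 142 ± 44.7, SLC38A1 at 70.5 ± 19.2, SLC7A5 at 67.9 ± 17.3 and SLC1A5 at 50.1 ± 15.7. The other members lay between SLC7A1 at 14.1 ± 11.1 and SLC1A4 at 4.57 ± 4.73 RF CPM per kilobase. In the RF order, the ranges of neighbours were separate between SLC38A2 and SLC3A2, between SLC3A2 and SLC38A1 and between SLC1A5 and SLC7A1, and all other neighbours overlapped. The RF counts covered all exons, so footprints in leaders and 3′ UTRs were included. They were divided by the coding length of 1 isoform, which in SLC38A2 held a mean of 43.6% of the isoform FPKM in DMSO.

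SLC38A2, a sodium-coupled carrier of small neutral amino acids that cells raise when amino acids run short, took up most of the footprints of the members. It held 69.9% to 78.3% of the members' RF counts in each culture, against 33.1% to 35.6% of their RNA counts. Its log2 TE, the log2 of RF CPM over RNA CPM, was above 0 in all 6 cultures, and no other member was above 0 in every culture. The sum of RF counts over all cultures was 9376 for SLC38A2, 1055 for SLC3A2 and 41 for SLC1A4, the fewest, and 4 members had fewer than 100.

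Under rapamycin, no transporter passed the threshold of the main test for a change in TE, RF or total RNA. The test was edgeR's quasi-likelihood fit, and the threshold was a Benjamini-Hochberg adjusted p under 0.05. The same threshold was passed by 0.0% of the 13329 genes tested in each direction in each of the 3 measurements. In TE, 0 members had an unadjusted p under 0.05 in this test, where 6.17% of all genes were higher and 6.42% lower. In RF it was 0 members against 1.76% of genes higher and 1.92% lower, and in total RNA 1 member, SLC38A2, against 3.32% of genes higher and 2.51% lower. DESeq2's Wald test called 1 member, SLC38A9, in TE, where it called 5.14% of all genes higher and 4.64% lower, so 1 of 10 is near that background. It called 1 member, SLC38A2, in total RNA, where it called 0.188% of all genes higher and 0.03% lower. In TE limma voom called 0 members and 0.0% of all genes.

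The fitted TE was higher in rapamycin than in DMSO for 8 of the 10 members, and 46.3% of all genes lay above 0 and 53.7% below. That direction turned for SLC7A11 with TMM over all libraries, and for SLC38A1, SLC38A2, SLC7A11 and SLC7A1 with 1 culture left out. The members' median log2 fold change in TE was 0.22, beside -0.06 over all genes tested. In RF, 8 of 10 were above 0, as were 51.3% of all genes (48.7% were below), with medians of 0.32 and 0.02, and the members' median was 0.19 without rapamycin culture 1. With 1 culture left out, SLC38A1, SLC7A11 and SLC7A6 fell below 0 in RF. In total RNA, 10 of 10 were above 0, as were 53.2% of all genes (46.8% were below), but SLC38A1 and SLC38A9 lay below 0 with DESeq2's size factors, and SLC3A2, SLC1A4 and SLC7A6 did so with other filters or on FPKM. The medians in total RNA were 0.05 and 0.01, and the members' median was 0.028 without rapamycin culture 2. TE and RF are not independent of each other, since TE is built on the RF counts. The standard errors of the members' TE changes ran from 0.23 to 0.69 on the log2 scale, and 7 of the 10 fitted changes were smaller than their own standard error. The joint fit shared each gene's dispersion between RF and RNA libraries, with a biological coefficient of variation of 24.4%. Except for SLC38A2 and SLC3A2, its TE standard errors were below those of RF alone, such as 0.59 against 0.92 for SLC38A9. The TE intervals and p-values of edgeR can therefore understate the spread of the footprints.

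**Figure D1:**
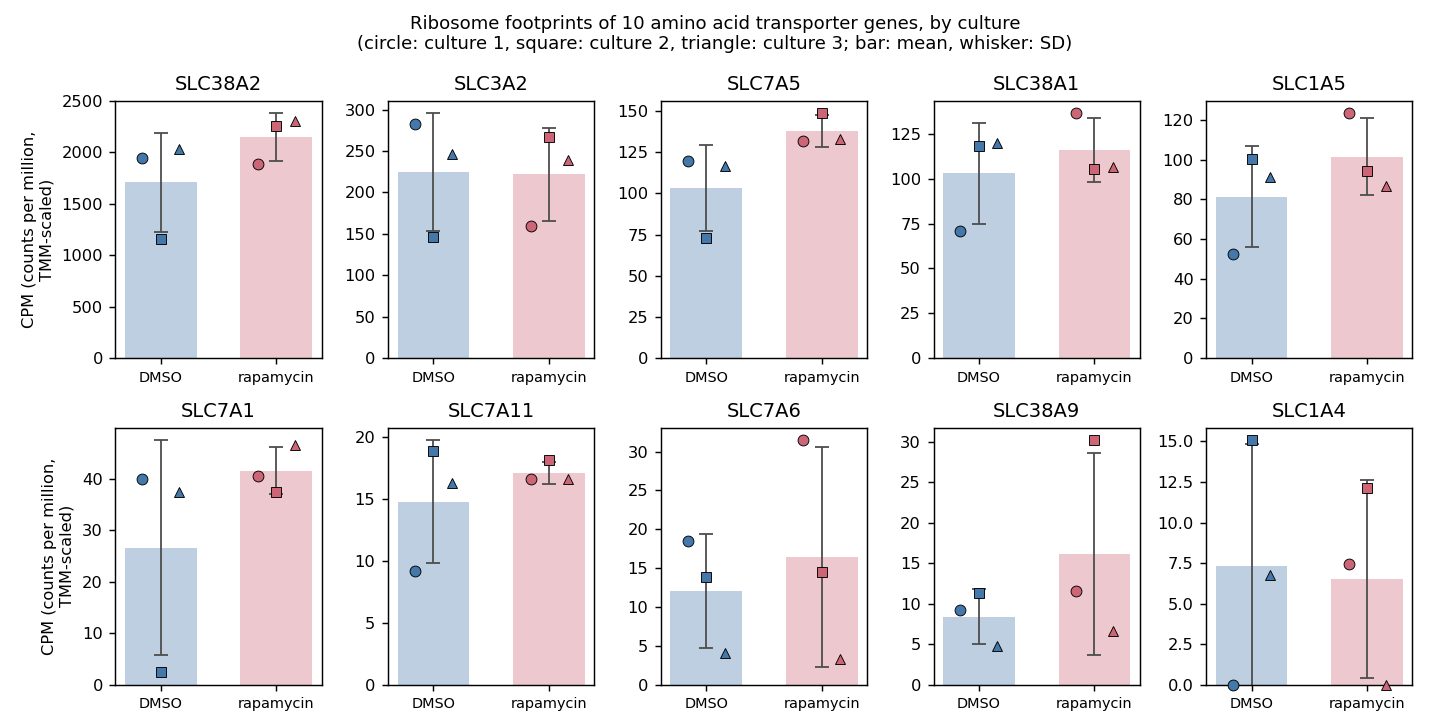
Footprint levels of the 10 transporters in CPM, scaled by TMM within the RF libraries, on linear axes that differ between panels. Points are the cultures (circle 1, square 2, triangle 3), bars are means and whiskers are SD over 3 cultures. Only in the panel of SLC7A5 do all rapamycin cultures, 132 to 149 CPM, lie above all DMSO cultures, 72.9 to 120 CPM.

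SLC7A5, the light chain that carries leucine, was the member whose treatments separated in footprints. Its RF level was 120, 72.9 and 117 CPM in DMSO cultures 1, 2 and 3 and 132, 149 and 133 CPM in rapamycin cultures 1, 2 and 3. All 3 rapamycin cultures lay above all 3 DMSO cultures, as they did for 5.24% of all genes tested in RF. No member lay lower in all rapamycin cultures in RF, where 4.21% of genes did. For SLC7A5 the exact permutation test of RF gave p = 0.1, the smallest that 3 against 3 cultures allow. Its log2 TE was -1.60, -2.40 and -1.68 in DMSO and -1.53, -1.46 and -1.49 in rapamycin. These did not overlap either, as in 4.8% of all genes in TE (0 members lay wholly lower, against 6.19% of genes), and the exact permutation test again gave p = 0.1. DMSO culture 2 was far below the others, and the gap between the closest cultures of the 2 treatments was small. The fitted log2 fold change in TE was 0.39 ± 0.23 (SE), with a 95% interval of -0.11 to 0.89 and an adjusted p of 0.511 in edgeR. Without DMSO culture 2 it was 0.15. In total RNA, SLC7A5 was at 371, 399 and 382 CPM in DMSO and at 388, 417 and 381 CPM in rapamycin, which overlapped. It lies on the minus strand at chr16:87863629-87903113 (GRCh37).

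SLC3A2, the heavy chain that anchors SLC7A5 and its relatives in the membrane, had about the same mean RF level in both treatments. Its RF level was 283, 146 and 246 CPM in DMSO and 159, 267 and 240 CPM in rapamycin. One culture of each treatment was low, DMSO culture 2 and rapamycin culture 1, and the treatments overlapped. The log2 fold change in TE was -0.02 ± 0.31, with a 95% interval of -0.68 to 0.63 (adjusted p = 0.985, edgeR), so a change in either direction within that interval could not be told from none. Its total RNA was at 289 to 300 CPM in DMSO and 289 to 302 CPM in rapamycin. The gene lies on the plus strand at chr11:62623476-62656352.

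SLC7A6, a light chain that exchanges cationic and neutral amino acids and also pairs with SLC3A2, had a high fitted TE change that came from few counts. The DMSO cultures held 6, 11 and 6 RF counts and the rapamycin cultures 38, 12 and 1. Rapamycin culture 1 was high and rapamycin culture 3 was low, and in RF CPM the DMSO values of 18.5, 13.8 and 4.08 overlapped with the rapamycin values of 31.5, 14.5 and 3.33. The fitted log2 fold change in TE was 1.24 ± 0.59, with a 95% interval of -0.04 to 2.51 and an adjusted p of 0.410 in edgeR. It was 0.30 without rapamycin culture 1. Fitted separately on the log2 scale, RF changed by 0.62 ± 0.91 (95% interval -1.31 to 2.55) and total RNA by 0.03. The joint TE value thus lay well above the RF change. The mean log2 TE per culture, which weights cultures equally, was higher in rapamycin by 0.16, from -1.55 ± 0.88 (SD, n = 3) in DMSO to -1.39 ± 1.28 in rapamycin (exact permutation p = 1). The gene lies on the plus strand at chr16:68298419-68335726.

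**Figure D2:**
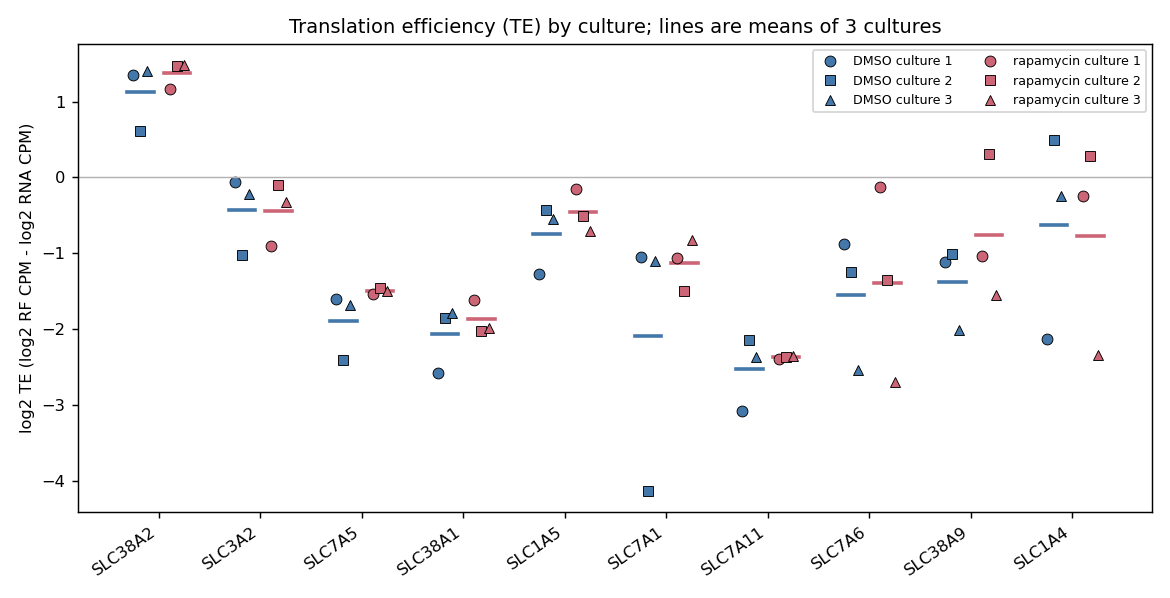
Log2 TE of each transporter in each culture, on a log2 axis where 0 means an equal share of RF and RNA reads, with a line at the mean of the 3 cultures. SLC38A2 is above 0 in all 6 cultures, and SLC7A5 has 3 rapamycin cultures between -1.53 and -1.46, above DMSO cultures between -2.40 and -1.60.

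SLC38A2, the member with the most footprints, was also the one whose treatments separated in total RNA, by a small amount. Its RNA level was 761, 760 and 765 CPM in DMSO and 843, 814 and 828 CPM in rapamycin. The cultures within a treatment were close and the treatments did not overlap, as held in the higher direction for 8.22% of all genes in total RNA (0 members lay wholly lower, against 6.61% of genes). The fitted difference was 8.74%, with a 95% interval of 3.97% to 13.7%, a log2 fold change of 0.12 ± 0.03 (SE) and an unadjusted p of 0.0020 in edgeR. It did not pass over all genes tested, at an adjusted p of 0.766 in edgeR, and it did in DESeq2's Wald test at an adjusted p of 0.0027. The authors' FPKM showed the same order, with 218, 210 and 215 in DMSO and 250, 230 and 248 in rapamycin.

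The footprints of SLC38A2 were 1947, 1156 and 2031 CPM in DMSO and 1884, 2261 and 2309 CPM in rapamycin. DMSO culture 2 was the low one, and DMSO culture 3 was above rapamycin culture 1. The RF change was 0.33 ± 0.22 on the log2 scale, with a 95% interval of -0.13 to 0.79, and the TE change was 0.21 ± 0.23, with a 95% interval of -0.29 to 0.71 (adjusted p = 0.754, edgeR). Without DMSO culture 2 the RF change was 0.10 and the TE change -0.02. The gene lies on the minus strand at chr12:46751971-46766556.

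SLC38A1, the related glutamine carrier at chr12:46576846-46663800, minus strand, had overlapping values in both treatments. Its RF level was 70.8, 118 and 120 CPM in DMSO and 137, 105 and 106 CPM in rapamycin. DMSO culture 1, with one of the smallest RF libraries, was low, and the treatments overlapped. The fitted change in TE was 0.14 ± 0.24 on the log2 scale, with a 95% interval of -0.37 to 0.65, and its total RNA stayed between 421 and 436 CPM in all 6 cultures.

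SLC1A5, an exchanger that takes up glutamine, lies at chr19:47278140-47291851 on the minus strand. Its RF level was 52.3, 101 and 91.0 CPM in DMSO and 124, 94.4 and 86.5 CPM in rapamycin. DMSO culture 1 was low and rapamycin culture 1 high, and the treatments overlapped. On the log2 scale the TE change was 0.24 ± 0.29, with a 95% interval of -0.39 to 0.87 (adjusted p = 0.781, edgeR), and it was 0.05 without rapamycin culture 1.

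SLC1A4, a carrier of alanine, serine and cysteine of the same family (chr2:65215611-65250999, plus strand), was too sparse in RF for a comparison. The DMSO cultures held 0, 12 and 10 RF counts and the rapamycin cultures 9, 10 and 0. The cultures with 0 counts were those with the smallest RF libraries, where a count of 0 allows up to 3 counts, or 9.23 CPM in DMSO culture 1 and 9.98 CPM in rapamycin culture 3, for counting error only. The log2 fold change in TE had a 95% interval of -1.62 to 1.33.

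In total RNA the treatments did not overlap in the isoform make-up of SLC1A4. Its leading isoform held 78.5%, 79.0% and 78.3% of the gene's isoform FPKM in DMSO and 89.8%, 88.1% and 80.9% in rapamycin. The rapamycin cultures were all higher, and more spread, with means of 78.6% ± 0.371 and 86.2% ± 4.71 (SD, n = 3, exact permutation p = 0.1, the smallest possible). The leading isoform share was higher in all rapamycin cultures for 5.18% of 11249 genes and lower in 5.05%, and none of the other 9 members separated. The gene had the lowest FPKM of the members, 2.31 to 2.89 over the 6 cultures.

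SLC38A9, the lysosomal arginine sensor (chr5:54921673-55069022, minus strand), had the highest fitted TE change, and it turned on single cultures. In DMSO there were 3, 9 and 7 RF counts (9.23, 11.3 and 4.76 CPM), and in rapamycin 14, 25 and 2 (11.6, 30.3 and 6.65 CPM). Rapamycin culture 2 was high, and rapamycin culture 3 lay below 2 of the 3 DMSO cultures. The log2 fold change in TE was 1.26 ± 0.59, with a 95% interval of -0.0040 to 2.52, an unadjusted p of 0.0506 and an adjusted p of 0.395 in edgeR. DESeq2's Wald test gave an adjusted p of 0.0335. Without rapamycin culture 2 the change was 0.51, without DMSO culture 3 it was 0.65, and without rapamycin culture 1 it was 1.74. Its total RNA was 25.3 to 28.9 CPM in DMSO and 26.4 to 28.8 CPM in rapamycin.

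**Figure D3:**
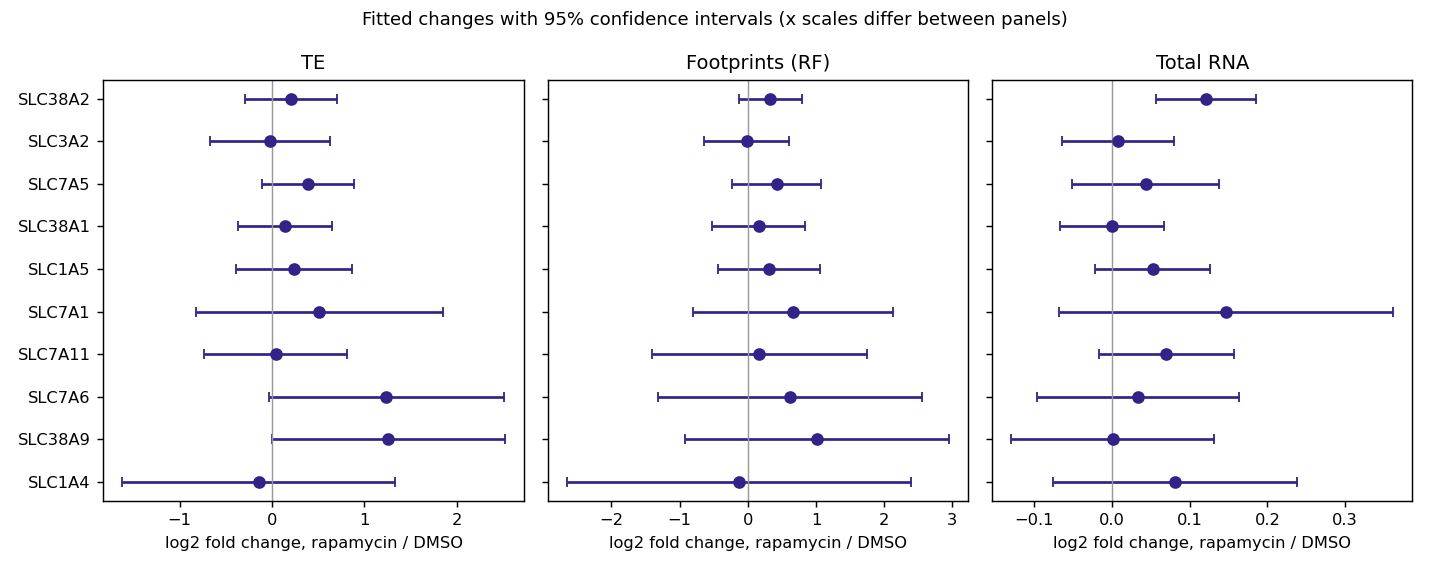
Fitted log2 fold changes, rapamycin over DMSO, of TE, footprints and total RNA with 95% confidence intervals from edgeR, with x scales that differ between panels. The interval excludes 0 only for SLC38A2 in total RNA, at 0.12, and the TE intervals are widest for SLC1A4, SLC7A1, SLC38A9 and SLC7A6.

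SLC7A11, the cystine and glutamate exchanger (chr4:139085251-139163503, minus strand), had the fewest RF counts for its RNA counts. It had 633 RNA counts for each RF count over all libraries, against 44.6 for SLC38A2. These counts are not scaled for length, and its leading isoform had 7859 bases of 3′ UTR beside 1503 coding bases. Per length it was not the lowest. In DMSO it had 9.84 RF CPM per kilobase at 10.5 FPKM, while SLC38A9 had 5.01 at 14.1 FPKM and SLC7A6 had 7.84 at 19.1 FPKM. Its RF level was 9.23, 18.9 and 16.3 CPM in DMSO and 16.6, 18.2 and 16.6 CPM in rapamycin. DMSO culture 1, which had 3 counts, was low and the others were alike. The TE change was 0.04 ± 0.36 on the log2 scale, with a 95% interval of -0.74 to 0.81 (adjusted p = 0.990, edgeR).

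SLC7A1, the main carrier of arginine and lysine (chr13:30083551-30169825, minus strand), rested on DMSO culture 2 in its TE. Its RF level was 40.0, 2.51 and 37.4 CPM in DMSO and 40.6, 37.5 and 46.6 CPM in rapamycin. DMSO culture 2 had 2 counts, and the other 5 cultures lay close to each other. The log2 fold change in TE was 0.51 ± 0.63, with a 95% interval of -0.83 to 1.85, and it was -0.06 without DMSO culture 2 and 1.30 without DMSO culture 3. In total RNA, SLC7A1 was at 87.9, 86.7 and 85.6 CPM in DMSO and 89.6, 112 and 86.4 CPM in rapamycin. Rapamycin culture 2 alone was high, and the log2 fold change of 0.15 was 0.02 without it. That RNA library also gave the highest value of the 6 for SLC7A5, SLC7A11 and SLC7A6. It did so for SLC38A1 too, at 436.26 CPM, barely above 436.11 CPM in DMSO culture 2.

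**Figure D4:**
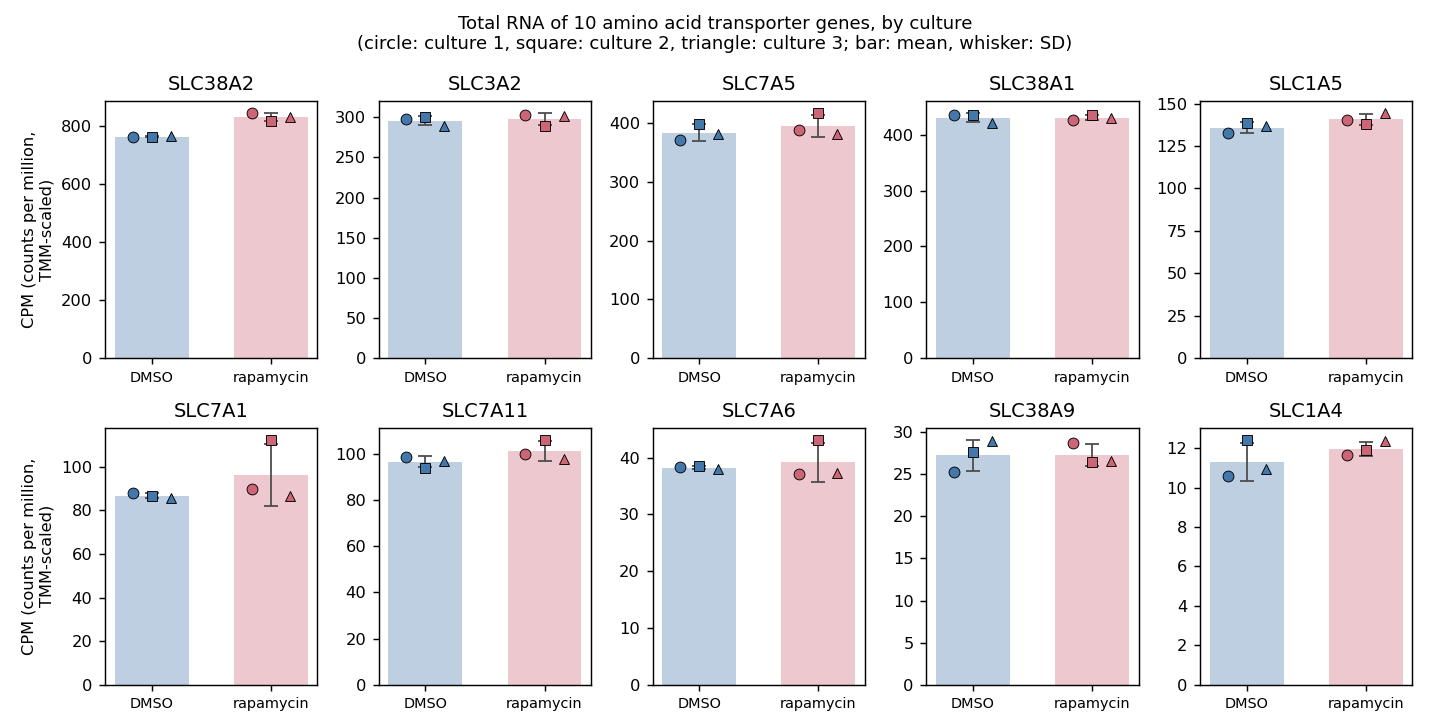
Total RNA of the 10 transporters in CPM, scaled by TMM within the RNA libraries, on linear axes that differ between panels. Points are cultures, bars means and whiskers SD over 3 cultures. SLC38A2 is the panel in which all rapamycin cultures, 814 to 843 CPM, lie above all DMSO cultures, 760 to 765 CPM.

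**Figure D5:**
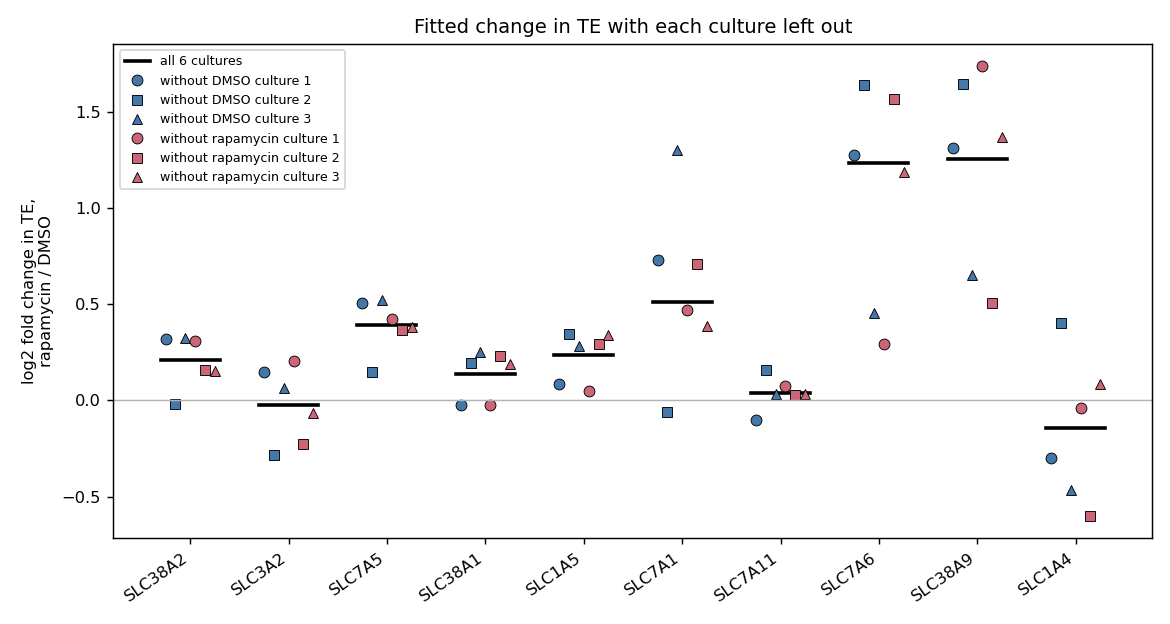
Fitted log2 fold change in TE of each transporter with all 6 cultures (black line) and with each culture left out in turn (symbols). SLC7A1 runs from -0.06 to 1.30. SLC7A6, from 0.30 to 1.64, SLC38A9, from 0.51 to 1.74, SLC7A5, from 0.15 to 0.52, and SLC1A5, from 0.05 to 0.35, stay above 0.

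Other transporters of amino acids and the ATF4 response, which controls several members, gave the same count of 0 at an adjusted p under 0.05 in edgeR for TE. DESeq2's Wald test called 0 plasma membrane, 1 lysosomal and 2 mitochondrial transporters and 1 gene of the ATF4 response, all lower in rapamycin, where the same test called 4.64% of all genes lower and 5.14% higher in TE. With limma voom the count was 0 in each list. Of 21 other plasma membrane transporters listed, 20 were in the count table and 5 had enough reads to be tested. None of the 5 had an unadjusted p under 0.05 in TE, where 6.17% of all genes were higher and 6.42% lower. Of these 5, 1 lay above 0 and 4 below, beside 46.3% and 53.7% of all genes, with a median log2 fold change of -0.50. The one with the most footprints, the taurine carrier SLC6A6, had a log2 fold change in TE of -0.27 (95% interval -0.93 to 0.39). Of the 7 lysosomal transporters, 6 were tested, with 2 above 0 and 4 below in TE and a median of -0.98. At an unadjusted p under 0.05, which 6.42% of all genes passed in the lower direction, 1 was lower, SLC66A1, an exporter of cationic amino acids. SLC66A1 had RF levels of 9.23, 31.4 and 34.6 CPM in DMSO and 10.8, 20.6 and 16.6 CPM in rapamycin, which overlapped, and its log2 fold change in TE was -1.03 ± 0.40 (unadjusted p = 0.023, adjusted p = 0.325 in edgeR and 0.0137 in DESeq2).

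Of the 9 mitochondrial amino acid carriers, all tested, 4 lay above 0 and 5 below in TE, beside 46.3% and 53.7% of all genes. Their median log2 fold change was -0.29. At an unadjusted p under 0.05, 2 were lower, SLC25A22 and SLC25A12, against 6.42% of all genes. In 2 of the 9 the log2 TE of all rapamycin cultures lay below that of all DMSO cultures, as in 6.19% of all genes. SLC25A22 was among these, while in SLC25A12 the treatments overlapped, with rapamycin culture 2 at -0.80 above DMSO culture 2 at -1.02. SLC25A22, a glutamate carrier, had RF levels of 55.4, 90.5 and 82.9 CPM in DMSO and 32.3, 53.2 and 36.6 CPM in rapamycin. Its log2 fold change in TE was -0.91 ± 0.33 (unadjusted p = 0.016, adjusted p = 0.289 in edgeR and 0.00095 in DESeq2). SLC25A12, an aspartate and glutamate carrier, held 19, 15 and 52 RF counts under DMSO and 14, 17 and 0 under rapamycin. The culture with 0 counts was rapamycin culture 3, one of the smallest RF libraries. The fitted log2 fold change in TE of SLC25A12 was -1.26 ± 0.47 (adjusted p = 0.303 in edgeR and 0.0023 in DESeq2).

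Among 10 genes of the ATF4 amino acid response, all tested, 8 had a fitted TE change above 0 and 2 below it. Of all genes, 46.3% lay above 0 and 53.7% below. None of the 10 had an unadjusted p under 0.05 in edgeR, where 6.17% of all genes were higher and 6.42% lower. In a list of 10, a count of 0 is near that background. The median of the 10 was a TE change of 0.18 on the log2 scale. ASNS, the asparagine synthetase and the one with the most footprints, had RF levels of 181, 157 and 162 CPM in DMSO and 101, 161 and 96.5 CPM in rapamycin. Rapamycin culture 2 lay among the DMSO cultures and the other two rapamycin cultures were lower, and the log2 fold change in TE was -0.43 (95% interval -0.99 to 0.12, adjusted p = 0.513 in edgeR and 0.0131 in DESeq2).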

How the data were processed

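In 6 PANC-1 cultures, grouped by their labels, footprints and total RNA were sequenced. The authors deposited raw counts per gene. They trimmed linkers from RF reads, dropped short and ribosomal ones, aligned all reads to GRCh37 with HISAT2 and ran featureCounts on protein-coding exons, keeping unique alignments. For total RNA, the authors deposited FPKM values too, for genes and for isoforms, made with cuffnorm of Cufflinks 2.2.1 according to the submitters' processing notes. The deposited table also holds the authors' own TE ratios, fold changes and p-values, and a column headed fpkm that equals the mean of the 3 DMSO RNA counts. None of these was used.

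Counts were scaled by TMM within each library type, and genes with at least 10 counts summed over RF and 10 over RNA libraries were tested with edgeR 4.0.16 (R 4.3.3, robust quasi-likelihood). A joint fit of the 12 libraries gave the TE change as its library type by treatment interaction, and RF and RNA were also fitted separately. The Benjamini-Hochberg adjustment ran over all 13329 genes. A prior count of 2 entered the log2 TE of each culture, and 2-sided exact permutation tests compared 3 with 3 cultures. The joint fit weights cultures by depth, so its value can differ from the mean per culture. The limit for a count of 0 was 3 counts, 2.04 to 9.98 CPM in the RF libraries. This covers counting error only.

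The members and lists were chosen with earlier results of these data known. The genes named are the 10 members and, of each other list, up to 5 genes with the smallest unadjusted TE p under 0.05 or otherwise the gene with the most RF counts. Genes of the marker lists are named only to check the cell type. SLC38A3 and PECAM1 were not analysed here. The RF and RNA library of a culture were matched by the replicate number in their titles and were taken to come from the same cells. The correlation of their deviations from the group means was -0.10 to 0.01, which does not show the pairing. Alternatives were DESeq2 1.42.0 (size factors or Wald test), other filters, TMM over all libraries, limma 3.58.1 (voom, or trend on log2 FPKM), blocks by culture or replicate number, leaving out each culture, a prior count of 0.5 and a minimum isoform FPKM of 0.1. Leaving out both smallest RF cultures was chosen after seeing the data. Leaders and start codons were read from GENCODE transcripts on GRCh37, the authors' build.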

Additional observations from a re-analysis of the deposited data

How the results depend on the processing

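No member passed an adjusted p under 0.05 in any alternative except SLC38A9 in TE and SLC38A2 in total RNA under DESeq2's Wald test. SLC38A2 was higher in total RNA in all of its 15 alternatives, by 0.10 to 0.18 on the log2 scale, with adjusted p from 0.0027 to 0.921, and SLC7A5 was higher in TE in all of its 15, by 0.15 to 0.52, with adjusted p from 0.0977 to 1. Keeping the direction was not particular to these. SLC1A5, SLC7A6 and SLC38A9 were also higher in TE in all 15, and SLC7A5, SLC1A5, SLC7A11 and SLC7A1 were in total RNA. Depth limits the RF values of 4 members, which had fewer than 100 RF counts in all, and SLC1A4 could not be fitted with a minimum of 60. Where a value below changed side, the cause was not tested.

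Counts over all genes moved from 0 as follows. DESeq2's Wald test called 685 genes higher and 619 lower in TE, 4 and 1 in RF, and 25 and 4 in total RNA. With no count filter, RF gave 10 higher and 10 lower, and FPKM with either pseudocount gave 1 higher in total RNA. Leaving out 1 culture gave 0 to 65 higher and 0 to 331 lower in TE (the most without DMSO culture 3), 0 to 5 higher (without rapamycin culture 1) and 0 to 1 lower in RF (without DMSO culture 2), and 0 to 683 higher and 0 to 4 lower in total RNA (without DMSO culture 3). The fit without DMSO culture 3 set DMSO cultures 1 and 2, whose RNA libraries had fewer genes with any count, against the rapamycin cultures. Whether that difference gave the calls was not tested.

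Deviations of same-numbered libraries correlated across treatments at -0.12 to -0.06 in RF and -0.22 to -0.11 in total RNA. These values do not show a pairing by replicate number. They cannot exclude one either, since RF and RNA of the same culture correlated at only -0.10 to 0.01. With the replicate block, 1 gene was higher in TE, and 4 were higher and 2 lower in RF, none of them a member, and SLC3A2 was at 0.0025 in TE and 0.0041 in RF. The block by culture changed no member's call.

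Other members changed sign as log2 values near 0. SLC3A2 was at 0.0059 in TE and -0.014 in RNA with no filter. Without both of the smallest RF cultures, SLC3A2 was at 0.10 in TE and 0.12 in RF, SLC7A11 at -0.12 in TE and -0.016 in RF, and SLC38A9 at -0.032 in RNA. With TMM over all libraries SLC7A11 was at -0.038 in TE. In RNA, DESeq2's size factors gave -0.0017 for SLC38A1 and -0.00077 for SLC38A9, and no filter gave -0.022 and -0.020. On log2(FPKM + 1), with or without a minimum, SLC1A4 was at -0.084, SLC38A1 at -0.0060 and SLC7A6 at -0.0073, and with 0.1 in place of 1 they were at -0.11, -0.0061 and -0.0077.

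Leaving out 1 culture at a time turned the sign of some TE changes, with SLC3A2 at -0.29 to 0.20, SLC1A4 at -0.60 to 0.40, SLC38A1 at -0.025 to 0.25, SLC38A2 at -0.018 to 0.32, SLC7A11 at -0.10 to 0.16 and SLC7A1 at -0.058 to 1.30. In RF, SLC3A2 ran from -0.26 to 0.18, SLC1A4 from -0.77 to 0.71, SLC38A1 from -0.027 to 0.27, SLC7A11 from -0.029 to 0.34 and SLC7A6 from -0.26 to 1.02. In RNA, SLC3A2 ran from -0.0054 to 0.031, SLC38A1 from -0.013 to 0.010, SLC38A9 from -0.052 to 0.047 and SLC7A6 from -0.039 to 0.072.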

Other observations

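The footprints of the SLC3A2 heavy chain relative to those of its SLC7A5 light chain, per kilobase of coding sequence, were 1.92 to 2.26 in the DMSO cultures and 1.16 to 1.73 in the rapamycin cultures. The mean ratios were 2.06 ± 0.177 and 1.53 ± 0.327 (SD, n = 3), and the ranges did not overlap (exact permutation p = 0.1, the smallest possible, and 0.167 adjusted over the 5 ratios computed). The same ratio in FPKM of total RNA was 1.99 to 2.09 in DMSO and 1.78 to 2.06 in rapamycin, which overlapped (exact permutation p = 0.8). The ratio of SLC3A2 to SLC7A5 was chosen after the values of both genes were seen. It was not the only ratio to separate. In FPKM, SLC38A2 over SLC38A1 was 3.09 to 3.28 in DMSO and 3.40 to 3.81 in rapamycin. SLC1A5 over SLC1A4 was 16.5 to 18.1 and 18.3 to 20.4 FPKM. Both gave the same exact permutation p of 0.1 (0.167 adjusted), while the RF ratio of SLC38A2 to SLC38A1 overlapped. The share of all gene pairs that separate was not computed.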
